A study of Homo sapiens with 2 samples.

Results

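Genes of transport early in the secretory pathway were examined for C-to-U edits directed to RBFOX2 in HEK293T cells. The members are the protein-coding genes whose symbols mark them as SEC, TMED, KDELR, LMAN, ERGIC or SAR1 family genes or as subunits of the COPI coat. A gene entered when it had an isoform locus, that is, a cluster of overlapping long-read isoforms, assigned to it as the gene that shared most exonic bases with it on its strand. The rule used symbols, annotation and the presence of an isoform locus, which depends on reads of these libraries, but no edit value. It found 49 genes (51 loci) among 10828 protein-coding genes with a locus. SEC31A and SEC14L1 each had 2 loci, and 11 symbols of the rule had none, among them SAR1A and TMED2, the latter being the second gene of a locus named for DDX55.

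HEK293T, labelled HEK293XT in the cell line field, is an immortalized human embryonic kidney line. In the study, cells fixed with methanol were incubated with purified APOBEC1, a cytidine deaminase, fused to a nanobody against rabbit antibodies. The RBFOX2 library came from cells that first received a rabbit antibody to RBFOX2, which regulates splicing through UGCAUG, and the enzyme-only library from cells given the fusion without that antibody, which measures background editing. Both groups carried the same enzyme, and each held 1 PacBio long-read library, so every comparison is between these 2 libraries and has no replicate check or p-value. All intervals printed are 95% (exact Clopper-Pearson) and express counting error alone. They treat sites as independent and hold no spread between libraries. The tables hold no molecular identifiers.

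Proteins made at the endoplasmic reticulum enter it through the translocon, where signal peptidase removes their signal peptides. COPII-coated carriers then bud from the reticulum toward the Golgi, and COPI-coated carriers return escaped residents and recycling receptors. Receptors such as the p24 proteins, the lectins and the KDEL receptors select what each carrier takes, and SNARE proteins drive its fusion with the target membrane.

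An edit site here is a cytosine listed with converted reads in a library's table, and a site is called unshared when the other library did not list it. Among 63 copies of UGCAUG in the exons of 34 of the 48 listed member loci, these 6 had the most unshared RBFOX2 sites within 50 nt, with TMED7 tied at the last place. They are shown because they are the motifs on which directed editing of the members could be read. Each is printed 5′ to 3′ as RNA (hg38, minus strand in all 6) with the motif in capitals.
SAR1B, chr5:134606490-134606519: uuauucaaugauUGCAUGaugccuuacagu
ERGIC2, chr12:29356433-29356462: acagucuccaaaUGCAUGcagaauucaugg
COPA, chr1:160290126-160290155: gcccccuuugugUGCAUGggucagucacca
KDELR2, chr7:6462054-6462083: uuacagagcuguUGCAUGacuuauguuacc
SEC22C, chr3:42563644-42563673: ggggacguggccUGCAUGgcuaucugcucc
SEC23A, chr14:39032055-39032084: aaugauuguacuUGCAUGaacacaaucaua

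The sites near the copies in SAR1B, KDELR2 and SEC23A lay in the 3′UTR, and those in ERGIC2 and SEC22C in coding sequence. SAR1B had 5 unshared RBFOX2 sites and 2 unshared enzyme-only sites within 50 nt of its motif, beside 3 sites listed in both libraries. ERGIC2 had 4 and 1, COPA 3 and 0, and KDELR2, SEC22C and SEC23A had 2 and 0 each. These motifs were picked for their RBFOX2 sites, so the lower enzyme-only numbers beside them are no comparison of the libraries, and all 63 copies are counted further on.

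The SAR1B cytosine with the most converted reads lay beside its motif. It is shown in the same way (hg38, minus strand, 3′UTR) with the edited cytosine in capitals.
SAR1B, RBFOX2 library, chr5:134606499-134606528: auaauuagcuuauuCaaugauugcaugaug

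This cytosine, 7 nt from the motif printed above, had 4 converted reads of the 186 reads of SAR1B in the RBFOX2 library, an edit fraction of 2.15%.

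Over all members, the RBFOX2 library listed 811 of its 121930 positions and the enzyme-only library 716 of its 103684, and 100 member positions were in both. The unshared sites numbered 711 and 616, a ratio of 1.15 (1.03 to 1.29). The ratio was 1.21 (1.20 to 1.22) over the other protein-coding loci, with 103344 and 85569 sites, a value within the interval of the members. Per 1000 gene reads, the members had 40.6 sites in the RBFOX2 library versus 41.5 in the enzyme-only library, and the other loci 43.6 and 39.3. Over genes listed in both tables the members' order turned, with 42.6 and 41.7, and under the common read minimum described next it was 42.6 and 38.2. More unshared sites were in the RBFOX2 library at 29 member loci and in the enzyme-only library at 17, and 2 had equal numbers. These are raw numbers, and the RBFOX2 library had 1.20 times as many unshared sites in total. The same count over all loci was not made, so it shows no lean particular to the members.

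Depth was similar for most members. Their genes had 24 to 3225 reads in the RBFOX2 library (median 201) and 11 to 2638 in the enzyme-only library (median 188), and the median ratio of reads was 1.12, against 1.11 for all protein-coding loci. Every listed site carried over 0.2% of its gene's reads, so from 500 reads up a single converted read was not listed, and the number needed rose with depth. This minimum differed between the libraries at SEC63 and TMED9. SEC63 had 563 reads in the RBFOX2 library versus 478 in the enzyme-only library, which put it on either side of 500. Over the 45 loci listed in both tables, with the same minimum in each, 710 and 558 sites remained, so that the ratio was 1.27 (1.14 to 1.42) for members and for other loci 1.29 (1.28 to 1.30).

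**Figure D1:**
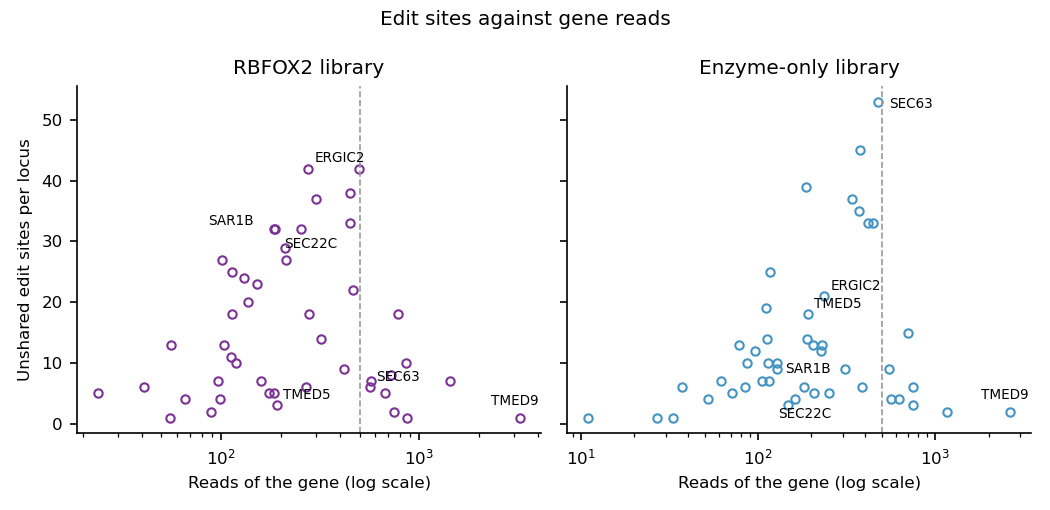
Unshared edit sites per member locus (linear axis) against the reads of its gene (log axis) in each library, with the dashed line at 500 reads. Right of the line, where single converted reads are not listed, no locus has more than 18 sites in the RBFOX2 library or 15 in the enzyme-only library, and SEC63 stands right of it in the RBFOX2 library (6 sites) and left of it in the enzyme-only library (53 sites).

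Of the 51 loci, 45 were listed in both tables. COPE, SEC24A and SEC14L2 were in neither, ARCN1 and SEC31B had sites only in the enzyme-only table, and SEC13 only in the RBFOX2 table. A gene without a site has no read number in these tables, so its level is not known. Among the lineage markers, KRT18 had 417 and 411 reads and NEFM 281 and 263, VIM was listed in the RBFOX2 table only with 1367 reads, and KRT8 and PAX2 in the enzyme-only table only with 23 and 3. The blood, liver and nephron markers PTPRC, HBB, ALB, UMOD and NPHS1 had no isoform locus.

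The number of sites per locus was compared as a log2 ratio, RBFOX2 over enzyme-only, scaled by the ratio of the libraries' unshared totals (1.20) with a pseudocount of 0.5. Among the 25 member loci with at least 20 unshared sites, 4 (16%) were beyond 2-fold higher in the RBFOX2 library, namely SEC22C, SAR1B, SEC24C and SEC31A, against 16.8% of the 3539 loci that large. SEC63, TMED5 and TMED1 were beyond 2-fold lower, 12% against 14.6%. The median log2 ratio of the 25 was 0.19, against 0.08 over all such loci. Both shares were near the background. With the same read minimum, 4 of 24 loci (16.7%) were higher, against 17.8% of 3397, and 2 (8.33%) were lower, against 11.2%.

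**Figure D2:**
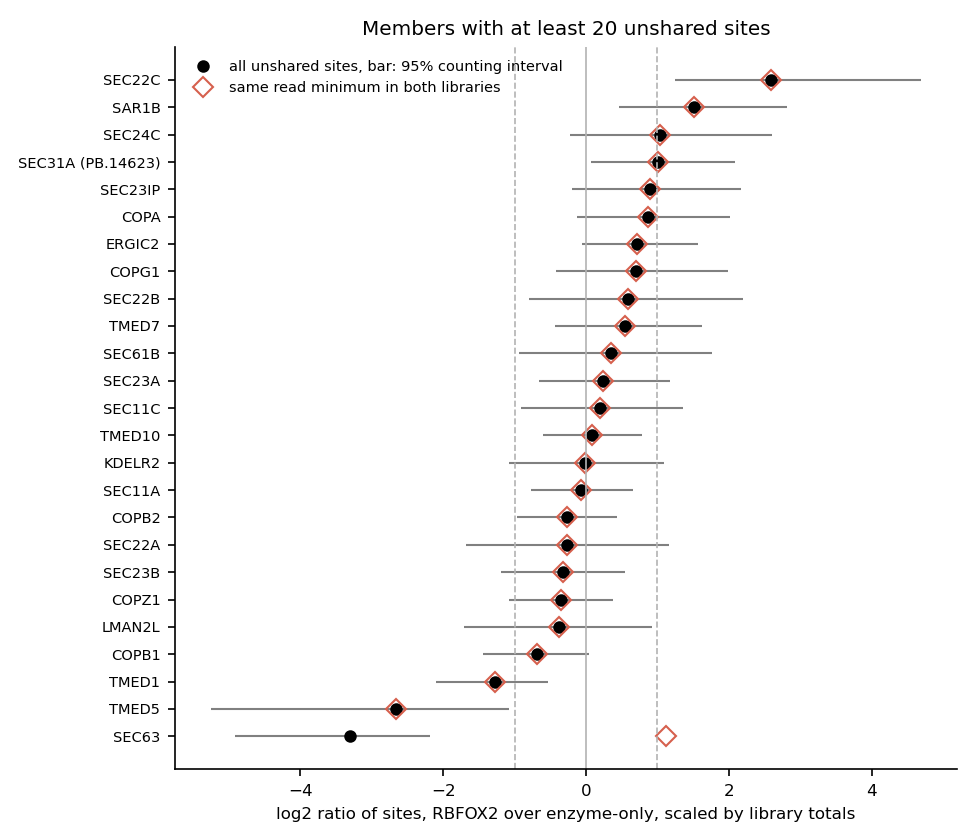
Scaled log2 ratio of unshared sites (RBFOX2 over enzyme-only) for the 25 member loci with at least 20 sites, with 95% counting intervals, and open diamonds for the same read minimum in both libraries. SEC22C is highest at 2.59 and SEC63 lowest at −3.30, and SEC63 alone moves under the common minimum, to 1.12.

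COPII genes had more sites in the RBFOX2 library, with 155 and 96 over 12 loci, a scaled log2 ratio of 0.43 (0.05 to 0.81). Of their 5 large loci, 3 were beyond 2-fold higher, beside 16.8% of all loci that large. SEC24C and SEC31A lay close to the cutoff and fell below it with a pseudocount of 1. The ratio of the group without SAR1B was not computed. SAR1B, the GTPase that starts COPII assembly, had 32 unshared sites and 186 reads in the RBFOX2 library and 9 sites and 127 reads in the enzyme-only library. Its log2 ratio was 1.51 (0.47 to 2.82), and 11 of its RBFOX2 sites had at least 2 converted reads, against 1 enzyme-only site. The last exon of SAR1B (chr5:134605850-134607066) held 20 RBFOX2 and 6 enzyme-only sites among its 216 cytosines.

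SEC31A, a protein of the outer COPII coat, had 32 sites and 254 reads in the RBFOX2 library and 13 sites and 230 reads in the enzyme-only library, a log2 ratio of 1.00 (0.07 to 2.09). In each library, the coding sequence held more of them than the 3′UTR did, 24 against 8 in the RBFOX2 library versus 11 against 2 in the enzyme-only library. Its second locus ran the other way, with 4 and 13 sites, which are part of the COPII sum. Only 12.9% of the exonic bases of that locus lie in exons of SEC31A. SEC24C, which binds cargo in the inner coat, had 18 sites and 113 reads and 7 sites and 105 reads, a log2 ratio of 1.04 whose interval reached below 0 (−0.23 to 2.60).

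Of the partners of these proteins, SEC23A and SEC23B had log2 ratios of 0.23 (−0.66 to 1.17) and −0.32 (−1.19 to 0.55). SEC23A, the inner-coat subunit that stimulates GTP hydrolysis by SAR1, had 27 and 19 sites, of which 19 and 9 lay in the 3′UTR, and its paralog SEC23B had 24 and 25, with 3 and 1 in the 3′UTR. The sites of these paralogs therefore lay in different parts of the transcript, in the 3′UTR for SEC23A in the RBFOX2 library and in the coding sequence for SEC23B in both (21 and 23). SEC24B had 7 and 5 sites, SEC24D 5 and 1, and SEC16A, the scaffold of exit sites, 5 and 3. The log2 ratio of SEC24D, 1.61 (−1.10 to 7.62), was above that of SAR1B, but it rests on few sites. SEC13 had 1 site on 869 reads, and SEC31B 1 enzyme-only site on 11 reads.

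COPI genes had nearly equal numbers, 147 and 144 over 8 loci, a scaled log2 ratio of −0.23 (−0.58 to 0.11), and none of their 5 large loci was beyond 2-fold, although COPA was (1.22) when ratios were scaled by each gene's reads. COPB2 had 37 sites in each library on 301 and 338 reads, and COPZ1 33 and 35 on 446 and 372. COPB1 had 29 sites on 210 reads and 39 on 187, a log2 ratio of −0.68 (−1.44 to 0.04). COPZ1, the small subunit, had the highest share of edited exonic cytosines in the enzyme-only library, 7.37%, with 6.74% in the RBFOX2 library.

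COPA, the α subunit of the coat, had a higher ratio than these, but its interval overlapped theirs. It had 27 sites on 213 reads in the RBFOX2 library versus 12 on 225 in the enzyme-only library, a log2 ratio of 0.87 (−0.12 to 2.02). Its 3′UTR held 15 and 3 sites, and the last of its 32 exons held 16 and 3. COPG1 had 20 and 10 sites, COPG2 1 and 6, and ARCN1, the δ subunit, 0 and 5.

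The p24 genes had fewer sites in the RBFOX2 library, 103 and 119, a scaled log2 ratio of −0.47 (−0.87 to −0.08). Of their 4 large loci, 2 were beyond 2-fold lower, TMED1 and TMED5, beside 14.6% of all loci that large. The ratio of the group without these 2 was not computed, and without TMED10 it was −0.76 (−1.26 to −0.27). Of the 7 loci, 4 had fewer sites in the RBFOX2 library and 3 had more, these 3 with intervals that included 0. TMED1 had 22 sites on 465 reads in the RBFOX2 library versus 45 on 375 reads in the enzyme-only library, a log2 ratio of −1.28 (−2.10 to −0.53). All 3 of its merged exons had more enzyme-only sites, with 13 against 4, 7 against 3 and 25 against 15. TMED5 had 3 sites on 192 reads and 18 on 190, a log2 ratio of −2.67 (−5.25 to −1.07), at nearly equal depth.

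TMED10, a core p24 protein, had 42 sites on 497 reads and 33 on 445, a log2 ratio of 0.08 (−0.61 to 0.79). Its 3′UTR held 31 of the RBFOX2 sites and 21 of the enzyme-only sites, and 9 against 2 of its sites had at least 2 converted reads. TMED7 had 25 and 14 sites on 113 and 112 reads. TMED3 had 8 and 4, TMED4 2 and 3, and TMED9 1 and 2. The locus of TMED4 also holds DDX56, and the reads of the pair cannot be told apart here. The same is so for COPG2 with TSGA13, KDELR2 with DAGLB and TMED7 with TMED7-TICAM2.

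The KDEL receptors, which return residents of the reticulum, had 29 and 31 sites. KDELR2 had 18 sites on 783 reads and 15 on 699, a log2 ratio of −0.01 (−1.07 to 1.09), with 11 and 5 of them in the 3′UTR and 7 and 10 in the coding sequence. KDELR1 had 7 and 9 sites and KDELR3 4 and 7. The lectin receptors had 27 and 20 sites, of which LMAN1 had 9 and 6 and LMAN2L 11 and 12. LMAN2 had 7 sites on 1431 reads and 2 on 1163, a log2 ratio of 1.32 (−0.85 to 4.85), and 6 of its RBFOX2 sites and none of its enzyme-only sites lay in the 3′UTR.

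ERGIC2, a protein that cycles between the reticulum and the Golgi, had 42 sites on 276 reads in the RBFOX2 library versus 21 on 236 in the enzyme-only library. Its log2 ratio was 0.72 (−0.05 to 1.57). It had the highest share of edited exonic cytosines of any member in the RBFOX2 library, 11.7%, against 5.85% in the enzyme-only library. The members' median was 1.76% in the RBFOX2 library versus 1.18% in the enzyme-only library. Its 3′UTR held 11 RBFOX2 sites and 1 enzyme-only site. ERGIC1 ran the other way with 5 and 14 sites, of which 3 and 12 lay in the 3′UTR, and ERGIC3 had 10 and 6.

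SEC22C had the highest ratio of the members. The SEC22 family holds SEC22B, a SNARE of transport between the reticulum and the Golgi, and its relatives SEC22A and SEC22C, which lack the SNARE motif. SEC22C had 32 sites on 188 reads in the RBFOX2 library and 4 sites on 162 reads in the enzyme-only library, a log2 ratio of 2.59 (1.24 to 4.70). Its isoforms ended in different last exons. The distal one (chr3:42547971-42548657) held 15 unshared RBFOX2 sites among 130 cytosines and no unshared enzyme-only site, beside 3 sites listed in both libraries. The other (chr3:42551786-42553448) held 2 and 1 sites among 276 cytosines. Reads are given per gene, so the number of reads that ended in either exon is not known, and its part in the difference was not tested.

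The other members of the family, SEC22A with 10 and 10 sites and SEC22B with 13 and 7, had log2 ratios of −0.26 (−1.68 to 1.16) and 0.58 (−0.80 to 2.20). Only 41.0% of the SEC22A locus lies in that gene, and it also holds PDIA5. The ratio of the family, 1.13 (0.38 to 1.93), therefore rested on SEC22C and was 0.17 without it.

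**Figure D3:**
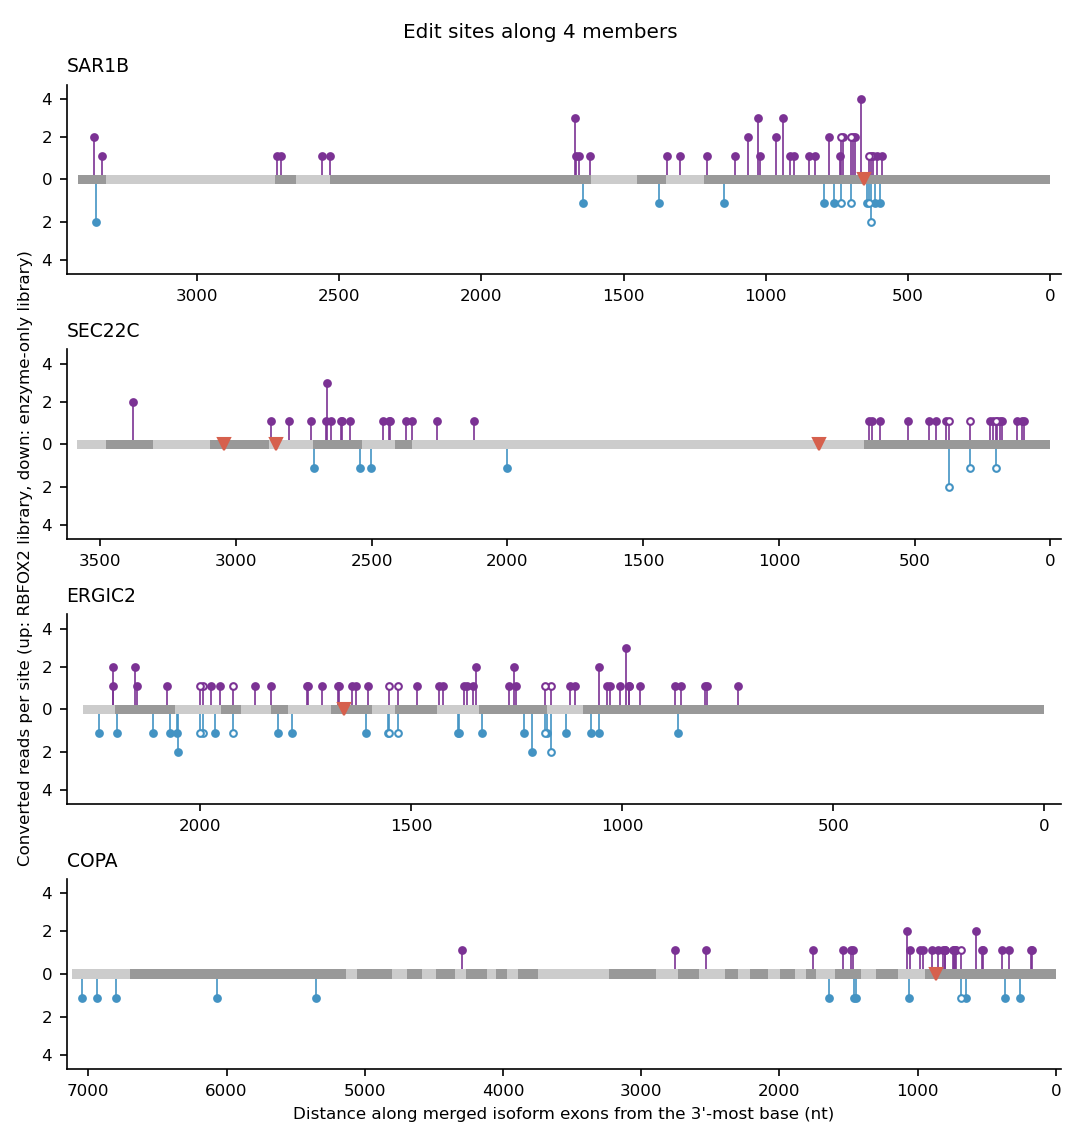
Edit sites along the merged isoform exons (grey blocks) of SAR1B, SEC22C, ERGIC2 and COPA, by distance from the 3′-most base in nt. The height of each line is the number of converted reads, up for the RBFOX2 library and down for the enzyme-only library, open circles mark sites listed in both and triangles UGCAUG. The last exon of SAR1B and the distal last exon of SEC22C hold 20 and 15 unshared RBFOX2 sites, against 6 and 0 enzyme-only sites.

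In the translocon group, SEC63, a partner of the SEC61 channel, had 6 sites in the RBFOX2 library versus 53 in the enzyme-only library, a log2 ratio of −3.30 (−4.92 to −2.19). Only 2 of the 53 had 2 or more converted reads, and all 6 RBFOX2 sites did, since single converted reads of this gene were listed in the enzyme-only library alone. Under the same minimum, SEC63 had 6 and 2 sites, and its log2 ratio turned to 1.12, with an interval that included 0 (−1.16 to 4.66). The group's ratio turned with it, from −0.93 (−1.47 to −0.41; 51 and 81 sites) to 0.50 (−0.18 to 1.20).

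The other translocon members had 1 to 9 more sites in the RBFOX2 library, but scaled by the library totals SEC61A1, SEC61G and SEC62 had log2 ratios of 0.03, −0.06 and −0.02. SEC61A1, the channel itself, had 5 and 4 sites, SEC61B 14 and 9, SEC61G 7 and 6 and SEC62 6 and 5. Only 40.2% of the exonic bases of the SEC61B locus lie in exons of that gene. SEC61A2, a second form of the channel, had 13 sites on 56 reads and 4 on 52, with 9 and 0 of them in the 3′UTR. SEC11A, a catalytic subunit of signal peptidase, had 38 sites on 445 reads and 33 on 418, a log2 ratio of −0.06 (−0.77 to 0.66), and SEC11C had 18 and 13.

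The remaining SEC symbols were grouped apart, and their sites are not in the COPII sum. SEC23IP, which binds the COPII protein SEC23, had 23 and 10 sites, of which 15 and 5 were in the 3′UTR. SEC14L1, a lipid-binding protein, had 6 and 1 sites at one locus and 2 and 6 at the other. Only 19.4% of the exonic bases of the first locus lie in exons of that gene.

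**Figure D4:**
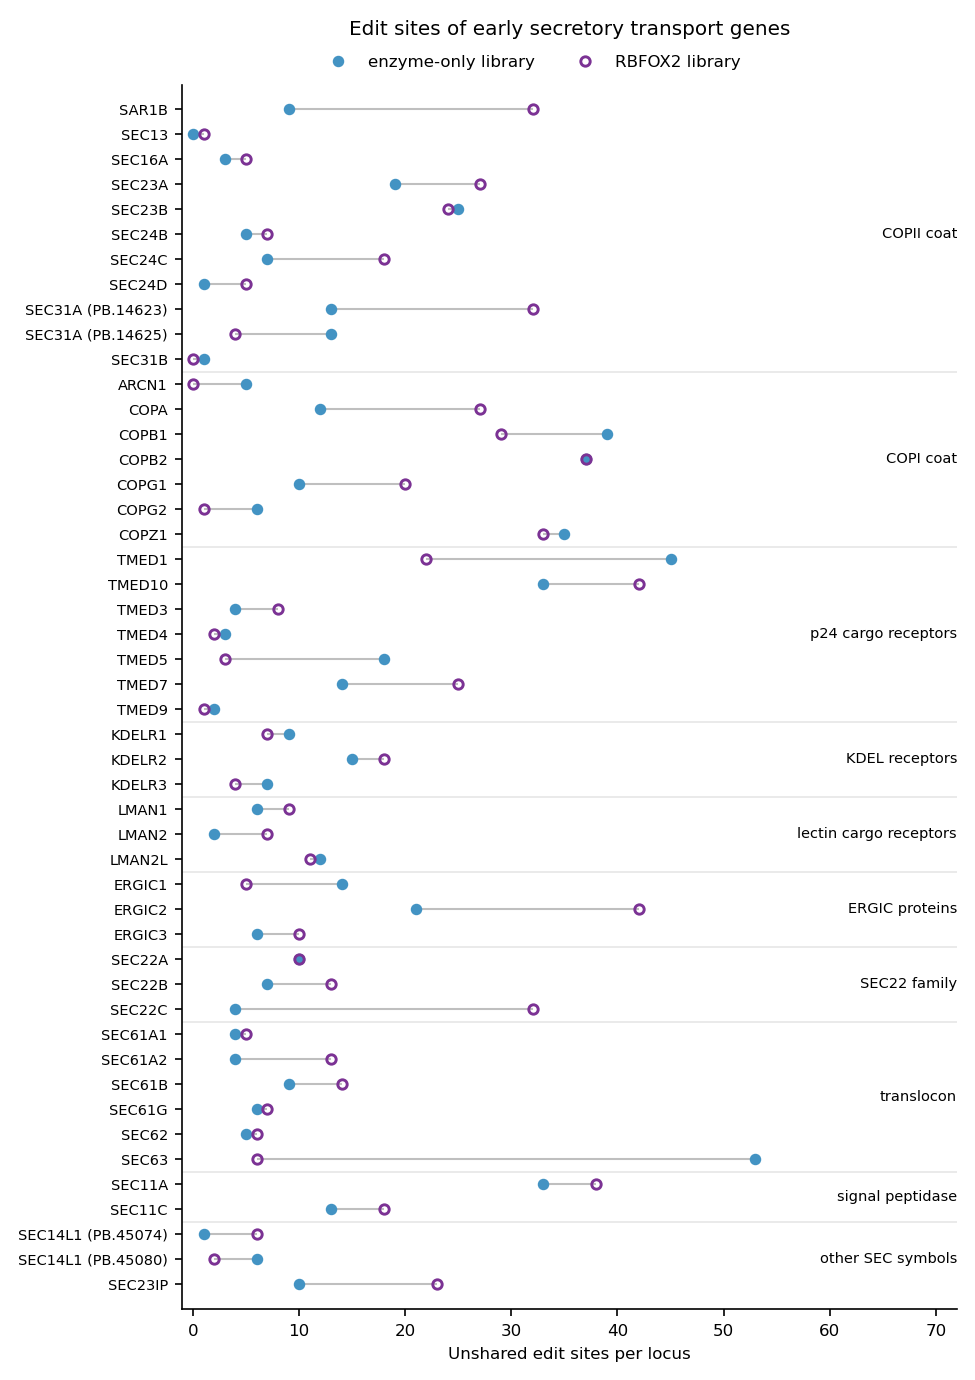
Unshared edit sites per member locus in the RBFOX2 library (open purple) and the enzyme-only library (filled blue), grouped by role. The widest gap with more RBFOX2 sites is at SEC22C (32 and 4) and the widest the other way at SEC63 (6 and 53).

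Scaled by the library totals, the number of member sites did not differ detectably, with a log2 ratio of −0.06 (−0.21 to 0.10). Some properties of the sites did differ between the libraries. At least 2 converted reads were seen at 17.9% of the RBFOX2 sites (15.1 to 20.9) and 12.2% of the enzyme-only sites (9.70 to 15.0). Among genes of at most 500 reads in both libraries, where single reads are listed, the shares were 9.60% and 5.47%. The other protein-coding loci had 14.8% and 9.78%, so a higher share in the RBFOX2 library was not particular to the members.

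APOBEC1 prefers an A or U just 5′ of the cytosine. Such a base preceded 76.5% of the members' RBFOX2 sites (73.2 to 79.6) and 69.5% of their enzyme-only sites (65.7 to 73.1), against 48.3% of the members' exonic cytosines. The other loci had 71.7% and 63.8%, against 44.3% of theirs. Relative to their cytosines, the members' RBFOX2 sites were thus 1.58 times as often preceded by A or U (1.52 to 1.65), and those of the other loci 1.62 times (1.61 to 1.62).

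The 3′UTR held 45.9% of the members' RBFOX2 sites (42.1 to 49.6) and 35.6% of their enzyme-only sites (31.8 to 39.5), against 32.4% of their exonic cytosines. The coding sequence held 49.2% and 56.8%, against 39.8% of their exonic cytosines, so it too was above its share in both libraries. Exonic cytosines of the isoform models also include positions outside annotated coding sequence and UTRs. The 3′UTR was represented 1.41 times over its cytosines in the RBFOX2 library (1.30 to 1.53) and 1.10 times in the enzyme-only library (0.98 to 1.22). The other loci had 42.3% and 36.1% of their sites there, 1.52 and 1.30 times over their cytosines. On single transcripts, SAR1B, SEC22C, COPA, ERGIC2, TMED10, SEC23A and SEC23IP each had at least 10 more 3′UTR sites in the RBFOX2 library. Such gaps are raw, not scaled by the library totals, and favour genes with many sites. How many of the other loci had gaps as wide was not computed. In the other direction, only SEC63 (0 and 12), with its unequal minimum, differed by as much. The next widest gaps with more enzyme-only sites were at ERGIC1 (3 and 12), TMED1 (10 and 18) and TMED5 (3 and 11). Further loci had smaller gaps that way, such as SEC11A (11 and 13).

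UGCAUG lay within 50 nt of 25 of 710 exonic RBFOX2 sites, or 3.52% (2.29 to 5.15), and of 13 of 616 enzyme-only sites, or 2.11% (1.13 to 3.58). The members' exonic cytosines had it at 3.14%. The RBFOX2 share was 1.12 times that of the cytosines (0.73 to 1.64) and the enzyme-only share 0.67 times (0.36 to 1.14), so neither was distinguishable from the cytosines. Over the other protein-coding loci the ratios were 1.60 (1.56 to 1.65) and 0.94 (0.90 to 0.98), and the members' RBFOX2 interval includes that value too. Within 200 nt, the RBFOX2 share of the members was 13.8%, 1.27 times the cytosines (1.04 to 1.52), and the enzyme-only share 9.09%, 0.83 times (0.64 to 1.07).

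By motif, 12 of the 63 copies had an unshared RBFOX2 site within 50 nt, in 12 loci, and 11 had an enzyme-only site, in 7 loci. Both were near 4 copies and neither near 44. LMAN2L had no RBFOX2 site near the motif and 3 enzyme-only sites, each near a different copy. Both SEC22C sites near its motif had 1 converted read, as had the near sites of COPA and ERGIC2, while those of KDELR2 had 2 each, the fewest that can be listed at its depth.

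**Figure D5:**
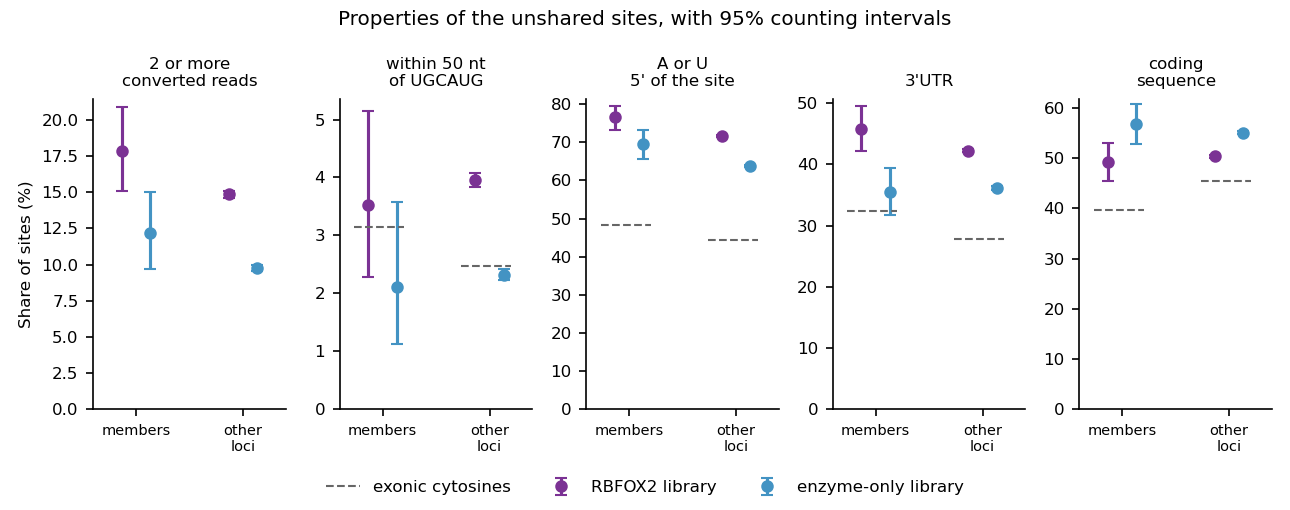
Share of unshared sites (%) with each property in the RBFOX2 library (purple) and the enzyme-only library (blue), for members and for other protein-coding loci, with 95% counting intervals and dashed lines at the share of all exonic cytosines. In the 3′UTR panel the members stand at 45.9% and 35.6%, and in the UGCAUG panel both their intervals include the cytosine share of 3.14%.

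Edits in coding sequence were set against the canonical transcript of each member. Of 335 RBFOX2 sites, 145 (43.3%) left the amino acid unchanged, 168 (50.1%) changed it and 22 (6.57%) made a stop codon. Of 348 enzyme-only sites, 155 (44.5%), 166 (47.7%) and 27 (7.76%) did so, and the shares over all coding cytosines were 40.1%, 52.0% and 7.95%. The interval of each share included the value of all cytosines, so no departure from them was detectable at this depth. Only 1 stop site in each library had more than 1 converted read, in SEC22C with 3 reads in the RBFOX2 library versus in SEC11A with 3 in the enzyme-only library.

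Other genes of the pathway that the symbols do not cover, 62 in all, served as a comparison. They included subunits of the signal recognition particle, ARF GTPases and their regulators, TRAPP tethers, RAB1 and the SNAREs that pair with SEC22B. A site was listed for 58 of them, and 37 loci had at least 20 sites with a median log2 ratio of −0.26, against 0.19 for the members. SRP9, of the signal recognition particle, had 35 and 5 sites (log2 ratio 2.43), GBF1, which activates ARF at the COPI step, 19 and 4 (1.85), and RAB1A, a GTPase of this step, 67 and 23 (1.26). CNIH4 had 6 and 18 (−1.77), TRAPPC3 13 and 36 (−1.70), SURF4, a cargo receptor, 9 and 25 (−1.69) and ARF4 24 and 47 (−1.22). ARF4 had 515 and 462 reads, so its minimum differed between the libraries as for SEC63. These 3 higher loci are 8.11% of the 37, beside 16.8% of all loci that large, and the 4 lower are 10.8%, beside 14.6%. Under the common minimum 4 were higher and 3 lower.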

How the data were processed

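Edit tables of 2 libraries of HEK293T cells, 1 per group, were compared; the labels number the libraries 1 and 2, which pairs nothing. For each site the authors deposited a count of converted reads, a count of reads per gene and library, and an edit fraction, whose denominator is all reads of the gene, also those that miss the position. A score per site, also deposited by the authors, was not compared. The labels name an Iso-Seq kit and the study's methods another (Kinnex, with pbmm2 alignment), so the tables may come from another run; the settings behind the isoform loci are not given in the sources used here. The study's removal of dbSNP variants was not repeated.

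All listed positions were cytosines of hg38. Loci were assigned to genes of GENCODE 44 (bedtools 2.31.1); coding sequence took precedence over 3′UTR. Merged exons of a locus's isoforms gave the cytosines, and 3 positions listed under the ERGIC2 locus on the opposite strand were left out. Sites of both libraries were left out except where counted. Intervals of ratios come from the Clopper-Pearson interval of the RBFOX2 share of the sites (scipy 1.17.1).

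Members with full values were those beyond 2-fold with at least 20 sites, the 5 with the most sites, those with at least 3 unshared RBFOX2 sites within 50 nt of UGCAUG and those holding the 10 sites with the most converted reads. Sites of some of these members are not reported here singly. Members and lists were chosen with earlier results of these data known.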

Additional observations from a re-analysis of the deposited data

How the results depend on the processing

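No paired analysis was possible because each group holds 1 library and the label numbers differ. Among named members, the common read minimum could change only SEC63 and TMED9, so the values of the others under it stayed by construction. Of 121 values recomputed under the alternatives, these included, 97 stayed within the counting interval of the reported value or near its count, 21 moved and 3 reversed from an interval that excluded 0. These 3 were the log2 ratio of SEC63, 1.12 under the common read minimum, and of the translocon group, 0.50 under that minimum and 0.42 without SEC63. The group alternatives, and the ratios of −0.68 for the ERGIC genes without ERGIC2 and 0.17 for the SEC22 family without SEC22C, were chosen after seeing the data. Sign also changed for values whose interval included 0, namely these ERGIC genes (reported at 0.21), the other SEC genes without SEC23IP (0.60 to −0.07) and, scaled by gene reads, COPB2 (0.17), SEC11A (0.11) and KDELR2 (0.09). With at least 2 converted reads, the ratio of member sites was 1.69, the share after A or U 85.0% and 77.3% in the RBFOX2 and enzyme-only libraries, and the RBFOX2 share in 3′UTRs 52.0%. Sites per 1000 reads were 46.3 and 48.3 with shared sites kept, and 38.2 in the enzyme-only library under the common minimum. The share with at least 2 converted reads was 9.60% and 5.47% in genes of at most 500 reads, and 15.4% in the enzyme-only library with shared sites. UGCAUG was near 0.986% and 0.649% of sites within 20 nt, below the 1.42% of cytosines, and near 13.8% and 9.09% within 200 nt. Counting the 3′UTR before coding sequence gave 64.3% and 53.2%, against 44.8% of cytosines. Of loci beyond 2-fold higher, a minimum of 50 sites left 0 and a pseudocount of 1 left 2, SAR1B and SEC22C. A minimum of 10 sites gave 5 higher loci, adding SEC61A2, and 6 lower, adding ERGIC1, KDELR3 and the second SEC31A locus, and keeping shared sites gave 5 and 4. Most sites rest on 1 converted read, and genes above 500 reads have a higher minimum, so low site numbers there do not show less editing. Causes other than the read minimum at SEC63 were not tested.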
